A study of Canis lupus familiaris with 5 samples.

Results

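The insulin-like growth factor (IGF) axis of the canine cephalic vein was followed through 8 genes: the ligands IGF1 and IGF2, the receptor IGF1R, and the binding proteins IGFBP2, IGFBP3, IGFBP4, IGFBP5 and IGFBP7. The genes were taken by name from the deposited feature tables after removal of numeric suffixes, each matched exactly 1 feature, and together they are 8 of 35531 features that name a gene. Nuclear RNA was counted as unique molecular identifiers (UMIs, 1 per captured transcript) in 5 libraries from 2 male mongrel dogs of about 25 kg. Control vein (dogs 1 and 2, n = 2 libraries) was an undistended segment. Distended vein (dogs 1 and 2, n = 2) had been filled with saline containing papaverine and bivalirudin while its outflow was blocked, with distension and harvest together lasting about 30 min. Grafted vein (dog 1 alone, n = 1) came from the same kind of harvest, was sewn into the carotid artery under bivalirudin and was taken 24 h later. All veins came from anaesthetised animals and were snap-frozen.

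IGF1 and IGF2 are secreted growth factors that act mainly through the receptor tyrosine kinase IGF1R, which signals through insulin receptor substrates to PI3K, AKT and mTOR and through GRB2 to the MAP kinases. The binding proteins hold IGFs in tissue fluid and on matrix, so that they can store the ligand or keep it from the receptor, and secreted proteases release it again. In veins moved into the arterial circulation, IGF signalling is known as a growth and survival signal for smooth muscle cells and for the cells of the thickening intima.

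The libraries held 2337436, 1305862, 2667701, 410604 and 11302558 UMIs, in the order of the 2 controls, the 2 distended veins (dog 1 first in each) and the graft, and 6855 of 7391 barcodes with at least 100 detected genes were kept as nuclei. Libraries shared 4 barcodes. A group of 4 unannotated features took 71% and 65.2% of the kept UMIs in the controls, 39.8% and 28% in the distended veins and 3% in the graft, so levels are given relative to the UMIs outside these features (CPM, per 1000000) or, for tested sums, after TMM scaling of the whole sum (TMM-CPM). Outside them the median nucleus held 2350 UMIs in the graft and 274 to 545.5 in the other libraries. Clusters named from marker genes gave 3130 endothelial-like and 2497 fibroblast-like nuclei, 93 smooth muscle-like, 130 lymphatic endothelial-like, 130 macrophage/monocyte-like and 212 neutrophil-like nuclei. The remaining 663 nuclei, 609 of them from the graft, lay in 2 clusters that stayed unnamed. Within a class the groups sat in different clusters: endothelial-like nuclei of the graft were in clusters 3 and 8 and those of control and distended vein mostly in clusters 2, 4, 5 and 14, while fibroblast-like nuclei of the graft were in cluster 1, those of distended dog 1 mostly in cluster 0 and those of control dog 2 mostly in cluster 6. Erythroid markers, led by HBM in cluster 4, reached 454 TMM-CPM in the endothelial-like nuclei of control dog 2 and 0 to 6.55 in those of the other libraries.

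In whole vein, the sum over all nuclei of a library, none of the 7 detected members passed the edgeR quasi-likelihood test in any of the 3 comparisons. The background was 0% of 13170 tested genes called for distended against control, 0% for grafted against control and 0% for grafted against distended. Unadjusted p-values below 0.05 were found for 186, 1162 and 725 genes, and calls by DESeq2 for 1, 117 and 31. The single grafted library was taken to vary like the others, and a lower level in whole vein cannot be told apart from fewer nuclei of the type that holds the gene. Each group holds at most 1 segment per dog. The p-values rest on the spread within the control pair and within the distended pair, moderated by edgeR over all tested genes. The graft adds nothing to that spread, and all 5 libraries come from 2 dogs.

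**Figure D1:**
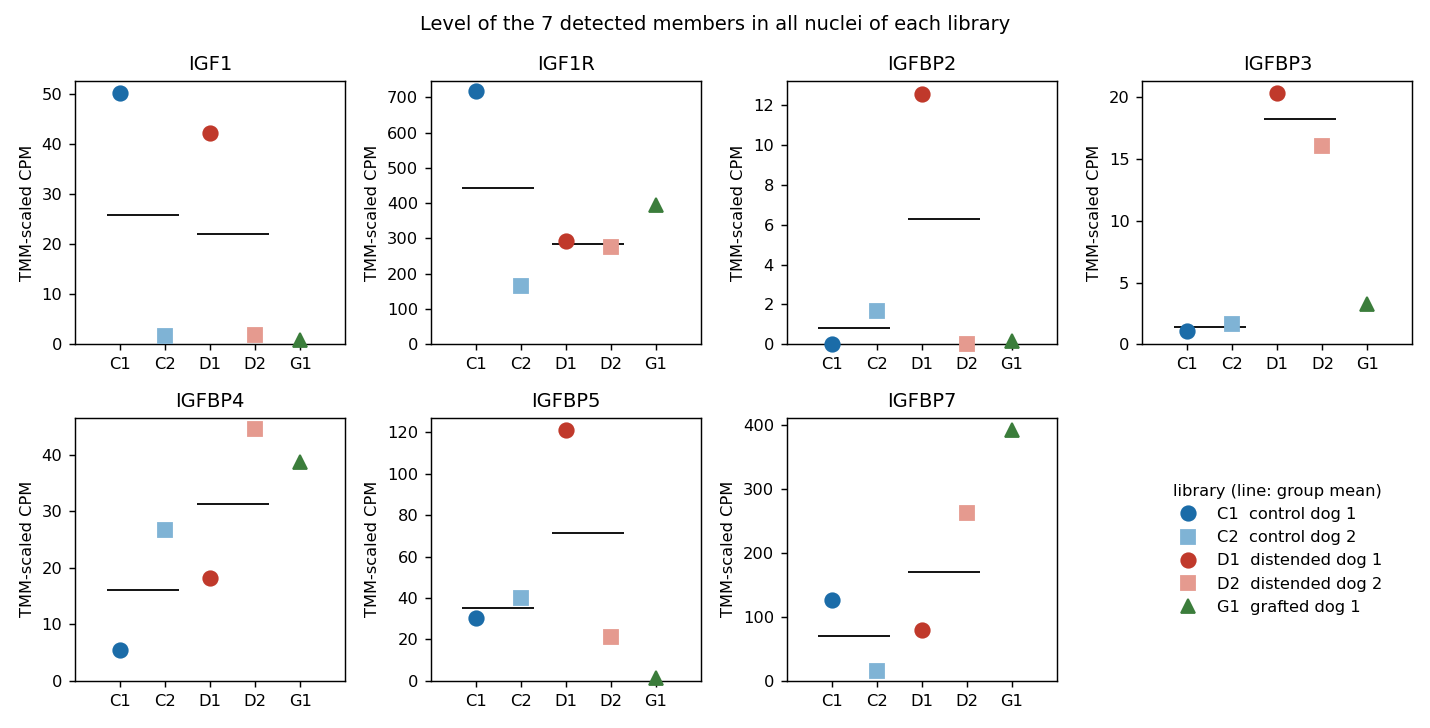
Whole-vein level (TMM-CPM, linear axis from 0) of the 7 detected members in the 5 libraries, 1 point per library, with a line at the mean of each group of 2. IGF1 is high in the control and distended libraries labelled dog 1 alone, IGFBP3 lies higher in both distended libraries than in the others, and IGFBP5 is lowest in the graft at 1.33.

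Of the ligands, IGF2 gave 0 UMIs in all 5 libraries. That is 0 of 6855 nuclei, which allows a share of positive nuclei of up to 0.0438% and a level of up to 0.222 CPM, counting error only. IGF1 stood at 50.1 and 1.67 TMM-CPM in control vein of dogs 1 and 2, at 42.2 and 1.79 in distended vein, and at 0.869 in the graft of dog 1, and values below keep this order, dog 1 first. Both high values came from libraries labelled dog 1 and both libraries labelled dog 2 held 1 UMI each, so control and distended vein overlapped, and the graft lay below all 4. The fitted log2 fold change was -0.18 (SE 1.34) for distended against control, -4.89 (SE 2.09) for grafted against control and -4.72 (SE 2.07) for grafted against distended, with edgeR adjusted p of 1, 0.564 and 0.906. Leaving out distended dog 1 or distended dog 2 gave graft-to-control values of IGF1 of -4.96 and -4.90. Leaving out distended dog 2 gave a graft-to-distended value of -5.55. These fits leave 1 distended library and take the spread from the control pair alone, so only the fitted values are given. Without control dog 1 the graft-to-control value of IGF1 shrank to -0.81, and without distended dog 1 the graft-to-distended value was -1.0, neither of them called, so the size of each difference rests on 1 library.

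The classes that held IGF1 UMIs differed between the 2 high libraries. All 46 UMIs of control dog 1 were in endothelial-like nuclei, at 100.7 CPM (exact 95% Poisson interval 73.7 to 134) and in 5.71% of nuclei. That class made up 87.1% of its nuclei, beside 51 fibroblast-like, 8 macrophage/monocyte-like and 0 lymphatic endothelial-like nuclei. The part of this make-up in the contrast was not tested. Distended dog 1 spread its 114 UMIs over 4 classes, and lymphatic endothelial-like nuclei, 5.88% of its nuclei, held 36.0% of them. Their level was 455 CPM (326 to 617), followed by 271 (140 to 474) in macrophage/monocyte-like, 57.3 (41.6 to 76.9) in fibroblast-like and 30.1 (17.5 to 48.1) in endothelial-like nuclei. The intervals of neighbours in that order overlapped for the upper pair and for the lower pair, but not between the pairs. IGF1 was seen in 20.2% of lymphatic endothelial-like nuclei at a median depth of 568.5 UMIs, and in 2.05% of endothelial-like nuclei of the same library at 659. After thinning each nucleus to 200 UMIs, which left out 459 shallower nuclei (108 and 287 of the controls, 61 and 2 of the distended veins and 1 of the graft), the shares were 9.68% and 0.163%. Only 6 other lymphatic endothelial-like nuclei were found, all in control dog 2 and all at 0, so that this source of IGF1 was measured in 1 library.

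Within endothelial-like nuclei IGF1 stood at 53.9 and 2.82 TMM-CPM in the controls, 15.9 and 0 in the distended veins, and 0.864 in the graft (8 UMIs in 1099 nuclei). The graft lay below both controls, with a fitted log2 fold change of -5.07 (SE 1.48) and an edgeR adjusted p of 0.0856, and with the dog as a replicate block the adjusted p was 0.0317. Without the filter on low counts it was 0.00318, and with clusters made without the 4 dominant features it was 0.0489. Those fits called 708 and 307 genes, against 196 in the main fit and 119 with the block. IGF1 stayed uncalled with DESeq2, with the dominant features left out of the sums, without marked doublets and without cluster 4. Without distended dog 1 or dog 2 the fitted value was -5.12 or -5.09. The size of this difference rests on control dog 1, without which the fitted value was -1.66 and was not called. In fibroblast-like nuclei the UMIs were 0, 0, 44, 1 and 2 in the same order. Against distended vein the graft held 60.1-fold less (counting interval 15.7 to 511.5), and this difference was called (edgeR adjusted p = 0.0275) against a background of 3.04% of 7368 genes. Nearly all of the distended side of that call is distended dog 1, without which IGF1 was too low in this class to be tested.

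The receptor IGF1R was detected in every library and in most classes. Whole-vein levels were 719 and 165 TMM-CPM in the controls, 293 and 275 in the distended veins and 395 in the graft. The 2 controls spanned the other 3 libraries, and the fitted log2 fold changes of -0.64 (SE 0.88), -0.16 (SE 1.08) and 0.48 (SE 1.06) for distended against control, grafted against control and grafted against distended gave edgeR adjusted p of 1, 0.967 and 0.999. By class, endothelial-like nuclei held 1381 and 358 CPM in the controls, 608 and 859 in the distended veins and 1380 in the graft, while fibroblast-like nuclei held 308, 199, 432, 394 and 394. In each library the endothelial-like value was the higher, with counting intervals that did not overlap except in control dog 2 (280 to 452 against 124 to 301). In distended dog 1 the order ran from lymphatic endothelial-like (976, interval 783 to 1203) and smooth muscle-like nuclei (839, 532 to 1260) through endothelial-like (608, 545 to 676) and fibroblast-like nuclei (432, 387 to 482) to macrophage/monocyte-like nuclei (67.8, 14.0 to 198). The smooth muscle-like interval overlapped those of both endothelial classes, and the intervals of the other classes did not overlap each other.

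In the graft, IGF1R was seen in 84.3% of endothelial-like nuclei at a median of 3411 UMIs and in 45% of fibroblast-like nuclei at 1796. Thinned to 200 UMIs the endothelial-like shares were 21.5% in the graft, 23.4% and 5.7% in the controls, and 8.16% and 14% in the distended veins, so the graft lay within the range of the controls once depth was equal. Within the graft, cluster 3 stood at 1504 CPM (1464 to 1545) and cluster 8, the other large endothelial-like cluster, at 832 (770 to 897). At Leiden resolutions of 0.4 and 1.5, 36 smooth muscle-like nuclei of the graft separated from the neutrophil-like cluster and held 1644 CPM of IGF1R (1353 to 1978), and clustering without the 4 dominant features gave 31 such nuclei at 1668 CPM (1363 to 2021). These compare with 818 (500 to 1263) and 839 (532 to 1260) in smooth muscle-like nuclei of control and distended dog 1, with no test because each is 1 library.

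The binding protein IGFBP2, which circulates and also sits on cell surfaces, gave 0 and 1 UMI in the controls, 34 and 0 in the distended veins and 4 in the graft. Of the 34 UMIs of distended dog 1, 30 lay in fibroblast-like nuclei (39.1 CPM, 26.4 to 55.8) and 4 in smooth muscle-like nuclei, and endothelial-like nuclei of the 5 libraries held 1 UMI in 3130 nuclei. The gene was thus measured in 1 library, and the smooth muscle-like share of 10% rests on 4 of 40 nuclei.

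IGFBP3, the main carrier of IGF1 in plasma, had 1 UMI in each control, 55 and 9 in the distended veins and 71 in the graft. In TMM-CPM these were 1.09 and 1.67, 20.4 and 16.1, and 3.25, so both distended veins lay above both controls and the graft between them. The distended libraries together held 14.9 times the control level (counting interval 3.96 to 126), with an unadjusted edgeR p of 0.00836 and an adjusted p of 1. The UMIs of IGFBP3 lay mostly in different classes in the 2 distended veins. In distended dog 1, 44 of 55 UMIs were in fibroblast-like nuclei (57.3 CPM, 41.6 to 76.9), while in distended dog 2 all 9 were in endothelial-like nuclei (60.4 CPM, 27.6 to 115). Distended dog 2 had only 51 fibroblast-like nuclei, with 9.99% of its UMIs outside the 4 dominant features, so a different source is not shown.

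Endothelial-like nuclei of the controls held no IGFBP3 UMI in 666 and 557 nuclei, where a floor of 3 counts would be 0.45% and 0.539% positive nuclei. The same class held 11 and 9 UMIs in the distended veins and 53 in the graft. Set against 3 counts over both controls, IGFBP3 was at least 5.69-fold higher in distended and at least 2.3-fold higher in grafted endothelial-like nuclei. Neither difference passed the edgeR test (unadjusted p = 0.00305 and 0.0259, adjusted p = 1 and 0.212), against backgrounds of 0% of 10887 genes called for distended against control (349 with an unadjusted p below 0.05, and DESeq2 calls for 2) and 1.8% for grafted against control. Of the graft's 53 UMIs, 45 lay in cluster 8, at 55.5 CPM (40.5 to 74.3) against 2.24 (0.966 to 4.41) in cluster 3. In the distended veins 10 of 11 and 8 of 9 UMIs lay in cluster 5, whose leading genes include NOSTRIN and PALMD. Cluster 5 held 27 of 666 and 200 of 557 endothelial-like nuclei of the controls, and 175 of 635 and 129 of 173 of the distended veins. Cluster 8 held 0 nuclei in both controls, 5 and 23 in the distended veins and 357 of 1099 in the graft. The part of this mix of clusters in the class differences of IGFBP3 was not tested.

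In fibroblast-like nuclei IGFBP3 was not called between graft and distended vein. The UMIs were 1 and 1 in the controls, 44 and 0 in the distended veins and 5 in the graft, and the fitted log2 fold change of grafted against distended vein was -4.14 (SE 1.40, edgeR adjusted p = 0.0771). Without distended dog 2, whose 51 fibroblast-like nuclei held 0 UMIs, it was -4.50, and without control dog 1 it was -4.17. Each of these fits leaves 1 library in a group besides the graft, so only the fitted value is given.

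**Figure D2:**
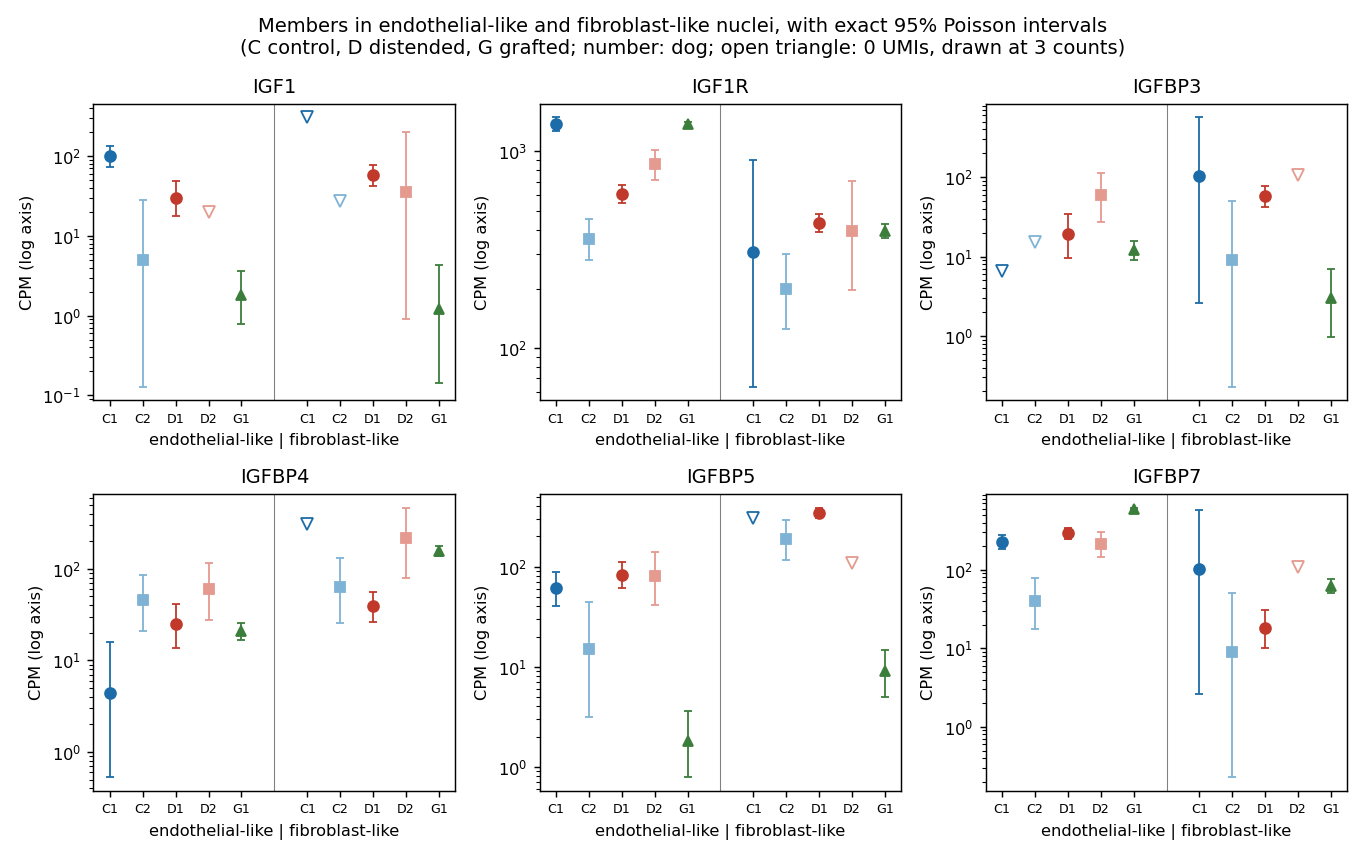
CPM on a log axis of 6 members in endothelial-like (left of each panel) and fibroblast-like nuclei (right) of each library, with exact 95% Poisson intervals, where open triangles mark 0 UMIs, drawn at the level of 3 counts. IGF1R lies higher in endothelial-like than in fibroblast-like nuclei of each library, IGFBP5 is lowest in the graft among libraries with UMIs of it in either class, and endothelial-like IGFBP7 is highest in the graft at 598 CPM.

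IGFBP4, a binding protein that mostly restrains IGF action and is cut by the protease PAPPA, gave 5 and 16 UMIs in the controls, 49 and 25 in the distended veins and 845 in the graft. Scaled to depth these were 5.44 and 26.7, 18.1 and 44.6, and 38.7 TMM-CPM. The graft lay above both controls but inside the range of the distended veins, and the fitted log2 fold changes of 0.97 (SE 0.92), 1.31 (SE 1.04) and 0.34 (SE 1.04) for distended against control, grafted against control and grafted against distended were not called (edgeR adjusted p = 1, 0.666 and 0.999). In the graft, IGFBP4 was high in fibroblast-like cluster 1 (158 CPM, 139 to 178) and in unnamed cluster 9 (127, 116 to 140) and low in endothelial-like cluster 3 (11.2, 7.99 to 15.2). Cluster 1 also holds 37 of the 51 fibroblast-like nuclei of distended dog 2, and there the level was 219 CPM (71.2 to 511, from 5 UMIs), against 39.6 (26.5 to 56.8) in cluster 0 of distended dog 1. Cluster 1 thus lay above cluster 0 in both of its libraries, while the interval of cluster 6 in control dog 2 (81.5, 29.9 to 178, from 6 UMIs) overlapped both clusters. Over libraries the class gave 0 and 36.8 TMM-CPM in the controls, 22.6 and 84.8 in the distended veins and 70.7 in the graft, with edgeR adjusted p of 1, 0.717 and 0.901 for distended against control, grafted against control and grafted against distended.

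IGFBP5, a matrix-bound protein that is among the most conserved of the family, was lowest in the graft in whole vein and in endothelial-like nuclei. Whole-vein levels were 30.5 and 40.0 TMM-CPM in the controls, 121 and 21.4 in the distended veins and 1.33 in the graft. The graft lay far below all other libraries, with fitted log2 fold changes of -4.70 (SE 1.31) against control and -5.75 (SE 1.38) against distended vein. These were not called by edgeR (unadjusted p = 0.0056 and 0.00227, adjusted p = 0.556 and 0.766) and were called by DESeq2 (adjusted p = 0.0201 and 0.00364) and by edgeR without its filter on low counts (0.034 and 0.00787). Leaving out distended dog 1 or dog 2 gave fitted values of -4.69 and -4.69 against control, and leaving out dog 2 gave -6.48 against distended vein. These fits leave 1 distended library and take the spread from the control pair alone. Distended and control vein overlapped, since distended dog 1 was the highest library and distended dog 2 lay below both controls.

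In endothelial-like nuclei IGFBP5 stood at 32.8 and 8.47 TMM-CPM in the controls, 44.0 and 34.7 in the distended veins, and 0.864 in the graft, where 8 UMIs were found in 1099 nuclei. The graft was the lowest library although its endothelial-like nuclei were the deepest. The next lowest, control dog 2, rests on 3 UMIs in 557 nuclei. IGFBP5 fell in the graft by 4.60 on the log2 scale against control (SE 1.05, edgeR adjusted p = 0.0341) and by 5.44 against distended vein (SE 1.08, edgeR adjusted p = 0.0335), the only member called in these comparisons. The background was 1.8% of 10887 genes called against control and 0.413% against distended vein. With the dog as a replicate block the adjusted p was 0.0472 against control and 0.123 against distended vein. Without control dog 1 and without control dog 2 the graft-to-control values were -3.23 and -5.17 (adjusted p = 0.251 and 0.355), and without control dog 2 the graft-to-distended value was -5.46 (0.335). The graft-to-control call thus needs both controls and the graft-to-distended call needs control dog 2.

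The 18 fibroblast markers, summed in the same endothelial-like nuclei, gave 1021 and 466 TMM-CPM in the controls, 679 and 472 in the distended veins and 663 in the graft. Of the 18, 4, 3, 2, 6 and 0 were at 0 UMIs, and the sum in the graft lay within the range of the other libraries. This sum does not separate RNA of fibroblasts from RNA of the endothelial-like nuclei themselves, and its part in the IGFBP5 difference was not tested. In control dog 1 all 28 IGFBP5 UMIs were in endothelial-like nuclei, which were 666 of its 765 nuclei. Positive nuclei made up 2.70% and 0.359% in the controls, 4.57% and 4.62% in the distended veins and 0.728% in the graft. Thinned to 200 UMIs they made up 2.19% and 0.238%, 2.28% and 1.16%, and 0.182%.

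In fibroblast-like nuclei IGFBP5 was high in 2 libraries and at 0 in another 2. The UMIs were 0 in control dog 1 (51 nuclei, 156 UMIs median depth), 21 in control dog 2, 265 in distended dog 1, 0 in distended dog 2 (51 nuclei) and 15 in the graft. As CPM the 3 libraries with UMIs gave 190 (117 to 290), 345 (305 to 389) and 8.95 (5.01 to 14.8). In the other 2, at 0 UMIs, a floor of 3 counts would be 308 and 107 CPM. IGFBP5 fell by 4.81 on the log2 scale in the graft against distended vein (SE 1.40, edgeR adjusted p = 0.0292, background 3.04%). Against control the fitted value was -4.19 (SE 1.39, edgeR adjusted p = 0.0806, background 2.47% of 7368 genes). The graft-to-distended call rests on distended dog 1, since without it the fitted value was 5.06 with an adjusted p of 0.999, and it was not made with a replicate block (adjusted p = 0.261) or by DESeq2 (adjusted p = 1). The 18 fibroblast markers moved the same way: summed, they gave 4669 and 8416 TMM-CPM in the controls, 10920 and 2870 in the distended veins and 1889 in the graft, and their part in the IGFBP5 difference was not tested. For distended against control no member was called in fibroblast-like nuclei (background 0.0271%).

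**Figure D3:**
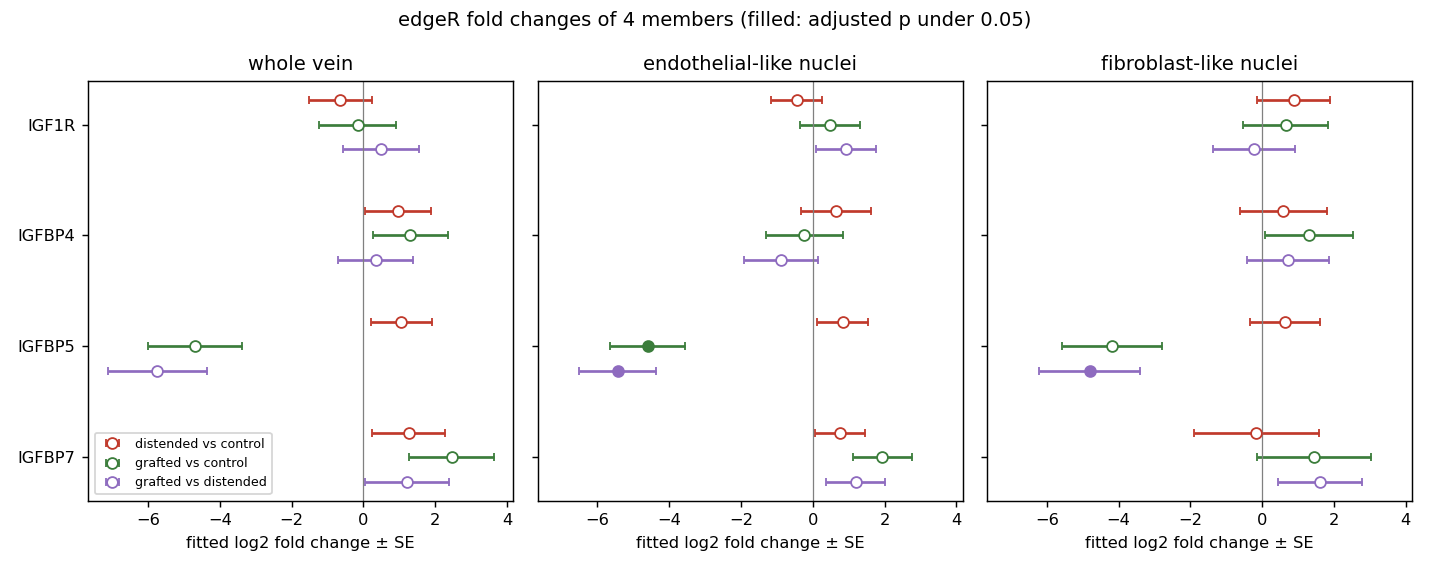
Fitted log2 fold changes with standard errors of IGF1R, IGFBP4, IGFBP5 and IGFBP7 (IGF1 and IGFBP3 had a group at 0 UMIs in a class and IGFBP2 was too low to test in classes) in whole vein, endothelial-like and fibroblast-like nuclei; filled points passed an edgeR adjusted p of 0.05. IGFBP5 shows negative values of 4.19 to 5.75 in size for the graft in each panel, whereas IGF1R, IGFBP4 and IGFBP7 have no filled point.

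IGFBP7, a secreted protein that binds IGFs weakly, is deposited in vessel walls and is abundant in endothelium, had 116 and 9 UMIs in the controls, 215 and 147 in the distended veins and 8595 in the graft. In TMM-CPM these were 126 and 15.0, 79.6 and 262, and 393. The graft was the highest library and the controls and distended veins overlapped, with fitted log2 fold changes of 2.46 (SE 1.18) for grafted against control and 1.21 (SE 1.18) for grafted against distended vein (edgeR adjusted p = 0.564 and 0.999).

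IGFBP7 was concentrated in few nuclei outside the graft. A single nucleus held 85 of the 215 UMIs of distended dog 1 and another held 75 of the 147 of distended dog 2, and the top 5 nuclei held 53% and 81.6%. In the graft the top 5 held 6.2%, since 36.7% of its nuclei were positive. Unnamed cluster 9, led by ribosomal protein genes and the venular chemokine receptor ACKR1, carried much of the signal. Its 251 graft nuclei held 5479 of the graft's 8595 UMIs at 1683 CPM (1638 to 1728), and its 10 nuclei of distended dog 2 held 115 of 147 UMIs at 1165 CPM (962 to 1398). These nuclei were deep, with medians of 4776 and 6174 UMIs, and the part of depth was not tested beyond thinning, after which 21.1% of the 251 graft nuclei were positive against 8.98% in endothelial-like cluster 3 and 0.514% in fibroblast-like cluster 1. Over named classes alone, the libraries stood at 221, 27.8, 144, 178 and 430 CPM in the same order of libraries, against 232, 26.5, 144, 526 and 789 over all nuclei. The graft stayed the highest library without the unnamed nuclei, and distended dog 2 moved below control dog 1.

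In endothelial-like nuclei IGFBP7 gave 121 and 22.6 TMM-CPM in the controls, 154 and 92.6 in the distended veins and 284 in the graft. In distended dog 1, 85 of the 165 UMIs of this class came from the 1 nucleus named above, so its value rests largely on that nucleus. The graft was again the highest, with a fitted log2 fold change against control of 1.94 (SE 0.81, edgeR adjusted p = 0.22) and against distended vein of 1.19 (SE 0.81, edgeR adjusted p = 0.686). Positive nuclei made up 53.4% of the class in the graft at a median depth of 3411 UMIs, against 8.97% of fibroblast-like nuclei at 1796. In distended dog 1 lymphatic endothelial-like nuclei held 33 UMIs, or 366 CPM (252 to 514). Thinned, the endothelial-like shares were 1.68% and 1.19% in the controls, 2.45% and 1.16% in the distended veins and 9.92% in the graft. In the graft the class ran at 593 CPM (568 to 619) in cluster 3 and 621 (567 to 677) in cluster 8, which did not differ beyond their intervals, unlike IGF1R, IGFBP3 and IGFBP4 in the same pair of clusters.

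**Figure D4:**
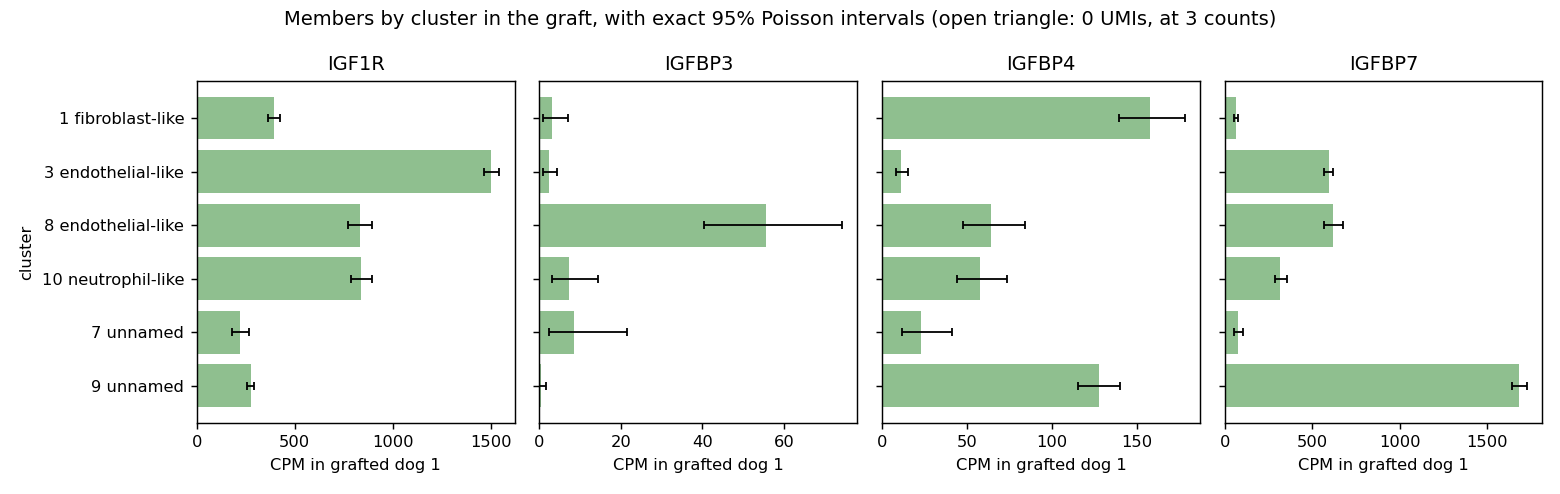
CPM of 4 members in the 6 clusters with at least 20 graft nuclei, as bars from 0 with exact 95% Poisson intervals and a separate axis for each gene. IGF1R leads in endothelial-like cluster 3 (1504), IGFBP3 in endothelial-like cluster 8 (55.5), IGFBP4 in fibroblast-like cluster 1 (158) with cluster 9 next, and IGFBP7 in unnamed cluster 9 (1683).

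Among 14 further genes of the axis (other binding proteins, alternative receptors, binding-protein proteases and their inhibitors), 8 were tested in whole vein, 8 in endothelial-like and 7 in fibroblast-like nuclei. A single call was made among them, IGFBP6 in fibroblast-like nuclei of grafted against control vein. Their median log2 fold change in whole vein was -0.66 for distended against control, -1.19 for grafted against control and -0.41 for grafted against distended vein, beside 0.08, 0.12 and 0.01 for all genes tested. In endothelial-like nuclei the median was -1.30 for grafted against control, beside 0.07, with 2 genes fitted higher and 6 lower, and in fibroblast-like nuclei it was -0.75 beside 0.28, with 3 fitted higher and 4 lower.

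PAPPA, the metalloproteinase that cuts IGFBP4, stood at 4.36 and 21.7 TMM-CPM in the whole-vein controls, 20.4 and 62.5 in the distended veins and 114 in the graft. The graft lay above the rest, with a fitted log2 fold change of 3.18 (SE 1.04) against control that edgeR did not call (adjusted p = 0.559). ADAM12, a membrane protease that can cut IGFBP3 and IGFBP5, gave 19.6 and 13.3, 70.0 and 66.0, and 110 TMM-CPM, so that all 3 groups were separate. Its fitted values were 2.03 (SE 0.67, edgeR unadjusted p = 0.0136) for distended and 2.73 (SE 0.75, unadjusted p = 0.00516) for grafted against control, with adjusted p of 1 and 0.556.

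Both proteases were highest in fibroblast-like nuclei of cluster 1. PAPPA held 1049 CPM (1001 to 1100) in fibroblast-like nuclei of the graft and 1217 (843 to 1701) in those of distended dog 2, most of which are in that cluster, against 54.7 (39.4 to 73.9) in distended dog 1 and 108 (56.0 to 189) in control dog 2. ADAM12 held 954 (908 to 1002) and 716 (437 to 1106) in the same pair, 116 (93.1 to 143) in distended dog 1 and 27.1 (5.59 to 79.2) in control dog 2. The fibroblast-like nuclei of distended dog 2 thus lay near those of the graft in both proteases and in IGFBP4. Clustering by expression had placed most of them with graft nuclei in cluster 1, so this likeness is partly built in. ADAM12 came close to a call for grafted against control in this class (fitted log2 fold change 4.39, SE 1.37, edgeR adjusted p = 0.0525), and PAPPA did not (3.11, SE 1.23, adjusted p = 0.192). In endothelial-like nuclei they stood at 4.02 (SE 1.15) for PAPPA and 2.96 (SE 0.85) for ADAM12 against control, both with an edgeR adjusted p of 0.081.

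IGFBP6, a binding protein that prefers IGF2, and STC1, a secreted inhibitor of PAPPA, ran the other way. In fibroblast-like nuclei IGFBP6 had 0 and 15 UMIs in the controls, 74 and 0 in the distended veins and 9 in the graft. It fell by 4.50 on the log2 scale in the graft against control (SE 1.39, edgeR adjusted p = 0.0492), 1 of 7 such genes tested against a background of 2.47%, a call in which all UMIs of the control side came from control dog 2. In whole vein it gave 43.6 and 31.7, 33.7 and 12.5, and 6.22 TMM-CPM, with 114 of the graft's 136 UMIs in unnamed nuclei. STC1 was largely endothelial-like, at 36.3 and 121 TMM-CPM in the controls of that class, 105 and 11.6 in the distended veins and 7.13 in the graft, with a fitted log2 fold change of -3.42 (SE 1.10) against control and an edgeR adjusted p of 0.117.

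**Figure D5:**
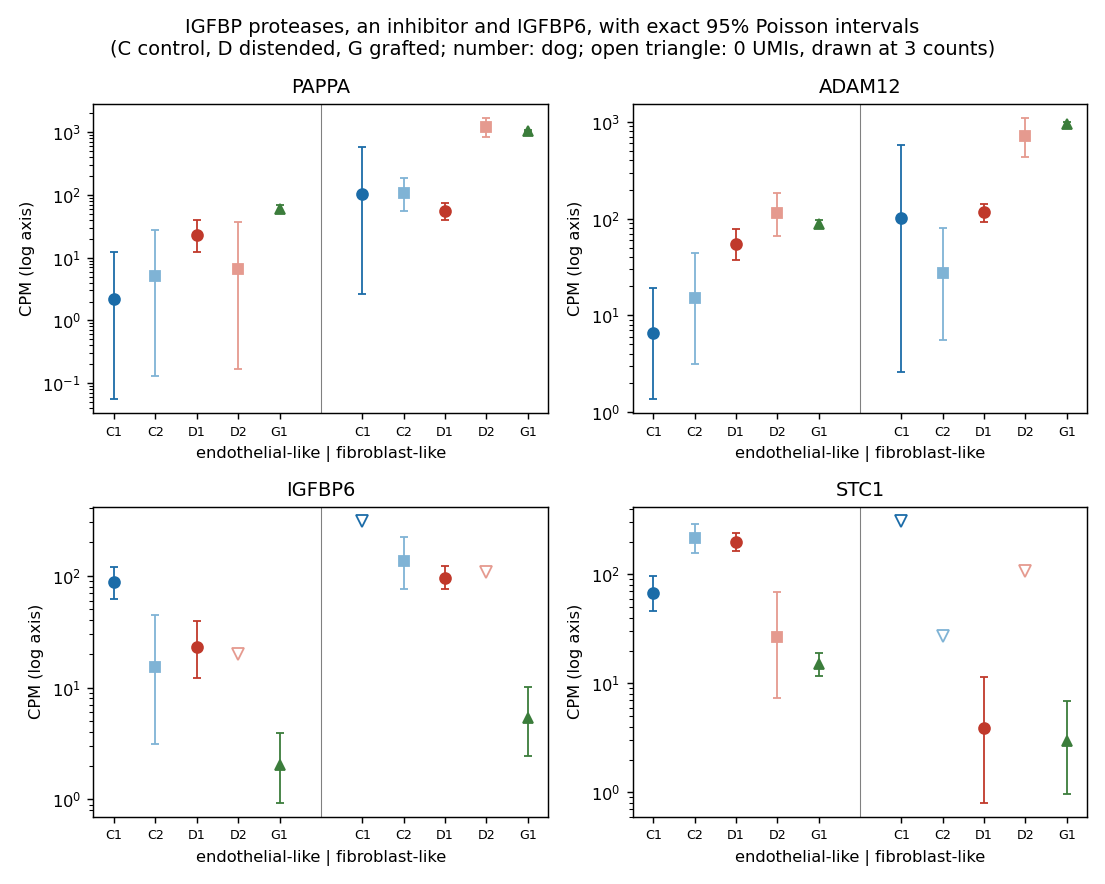
CPM on a log axis of PAPPA, ADAM12, IGFBP6 and STC1 in endothelial-like and fibroblast-like nuclei of each library, with exact 95% Poisson intervals and open triangles for 0 UMIs, drawn at the level of 3 counts. PAPPA and ADAM12 in fibroblast-like nuclei stand at 716 to 1217 CPM in distended dog 2 and the graft, and IGFBP6 in the graft lies below 6 CPM in both classes.

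Of the other receptors, the insulin receptor INSR stood at 114 and 127 TMM-CPM in the whole-vein controls, 117 and 32.1 in the distended veins and 39.0 in the graft. IGF2R, which clears IGF2 into lysosomes, gave 25.0 and 18.3, 15.2 and 3.57, and 11.8. The growth hormone receptor GHR gave 463 and 68.3, 160 and 67.8, and 125, so that GHR, like IGF1R and IGF1, was highest in control dog 1. HTRA1, a serine protease that can cut IGFBP5, gave 166 and 130, 196 and 69.6, and 60.4. Against control the fitted log2 fold changes of the graft were -1.63 (SE 0.96) for INSR, -0.88 (SE 1.05) for IGF2R, -1.09 (SE 1.20) for GHR and -1.29 (SE 0.93) for HTRA1, none called by edgeR (adjusted p = 0.594, 0.775, 0.753 and 0.643). The remaining 6 genes were too low to test: IGFBP1 gave 0 UMIs in all libraries, and in the graft IGFBPL1 gave 2 UMIs, IGFALS 3, INSRR 2, PAPPA2 9 and STC2 24.

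Of 38 genes of the signalling chain below the receptors (IRS proteins, PI3K, AKT, TSC, mTOR and MAP kinase components), 37 were found and 34 tested in whole vein. None was called there, and the median log2 fold changes of 0.02, -0.23 and -0.28 for distended against control, grafted against control and grafted against distended vein stood beside 0.08, 0.12 and 0.01 for all genes. Among those whose libraries did not overlap, the largest fitted values for distended against control included 1.12 (SE 0.68) for the PI3K regulatory subunit PIK3R1, 0.48 (SE 0.63) for GSK3B, -0.74 (SE 0.62) for MTOR, -0.63 (SE 1.21) for AKT2 and -0.49 (SE 0.62) for PIK3CB, each with an edgeR adjusted p of 1. For grafted against control they were 1.56 (SE 0.72) for the mTOR complex subunit RICTOR, 1.54 (SE 0.89) for the mTOR activator RHEB, 1.51 (SE 1.06) for EIF4EBP1, -2.09 (SE 0.95) for TSC2, which restrains RHEB, -1.45 (SE 1.86) for IRS1 and -1.37 (SE 0.80) for MTOR, with edgeR adjusted p from 0.564 to 0.791. For grafted against distended vein EIF4EBP1 (1.38, SE 1.06), RHEB (1.29, SE 0.89), GRB2 (1.25, SE 0.75), DEPTOR (-2.83, SE 1.49), TSC2 (-1.37, SE 0.91) and PIK3R2 (-1.36, SE 1.21) led, with edgeR adjusted p from 0.953 to 0.999. Both graft comparisons share the single graft library.

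In the classes 31 and 26 of these genes were tested in endothelial-like and fibroblast-like nuclei, and the only call was DEPTOR, an inhibitor of mTOR. In fibroblast-like nuclei it had 0 and 6 UMIs in the controls, 63 and 1 in the distended veins and 5 in the graft, and it fell by 4.71 on the log2 scale in the graft against distended vein (SE 1.40, edgeR adjusted p = 0.0342), 1 of 26 tested against a background of 3.04%. As for IGF1 and IGFBP5 in this class, the distended level was nearly all distended dog 1.

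Genes with the most similar pattern to each member were sought over 16 sums of a library and a named class, as the Pearson correlation of log2(CPM + 10) among 11319 genes. These sums share libraries and depth, so the values are descriptions. IGF1R was most like AUTS2 (r = 0.935), LARP1B (0.931) and SASH1 (0.925). IGFBP5 was most like LEKR1 (0.904), PELI3 (0.894) and ZNF280B (0.890), IGFBP7 like DYSF (0.895), YPEL2 (0.868) and ADAMTS12 (0.849), and IGFBP4 like DSEL (0.907), MICAL1 (0.890) and SLC27A4 (0.890). IGFBP3 was most like the chemokine gene CXCL12 (0.880), followed by PPP1CA (0.817) and CEP83 (0.814), and IGF1 like FOLH1B (0.859), DSG2 (0.847) and PRICKLE4 (0.841). IGFBP2 and IGF2 had too few UMIs for such a comparison.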

How the data were processed

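The authors deposited UMI counts per feature and barcode for each of 5 libraries, made with Cell Ranger 7.0.0 per the submitters' processing notes, and the counts were used as deposited. No build is named in the labels or headers (not given in the sources used here), and coordinates and sequences are not printed. The 24 features that name no gene (0.588% to 11.5% of UMIs per library) were left out. Barcodes with at least 100 genes were kept. All were clustered without batch integration (scanpy 1.11.5, 2000 variable genes, 20 components, 15 neighbours, Leiden resolution 0.8), giving 15 clusters, which were named from 15 marker lists when at least 3 markers were detected (3 UMIs, 2 times the other clusters) and led; these limits were set after seeing the data, and cluster 1 was named although no list's marker was among its 10 leading genes. Scrublet marked 25 nuclei (0.365%), too few to count as working, so doublets are not excluded. No correction for free RNA was run.

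UMIs were summed per library over all nuclei and over classes with at least 20 nuclei, and tested with edgeR 4.0.16 (R 4.3.3; TMM, filterByExpr, quasi-likelihood, two-sided, all groups in 1 fit with 2 residual degrees of freedom, Benjamini-Hochberg at 0.05). DESeq2 1.42.0 was an alternative. Intervals are exact (Clopper-Pearson, Poisson) at 95% and, like floors of 3 counts, cover counting error only. Libraries with the same number are the same dog, per the labels; whether the numbers of 1 group are crossed cannot be told apart from these data. Members and gene lists were chosen with earlier results of these data known; the text names all members, all 14 axis genes, and of the signalling genes those called and the 3 largest without overlap in each direction, of which 1 is not reported here.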

Additional observations from a re-analysis of the deposited data

Results flagged for a closer look

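In 2 members the graft lay above both controls in 1 class of nuclei and below both in the other. How many of all genes show such a pattern was not counted, so the 2 members are given as values only. No direction is established, because the fibroblast-like values rest on 0 to 5 UMIs and the difference between classes was not tested. None of these differences was called in the main edgeR fit, while IGF1 in endothelial-like nuclei was called in the alternatives given above. IGFBP3 in endothelial-like nuclei was 0.0 TMM-CPM in control dog 1, 0.0 in control dog 2 and 5.72 in the graft, while in fibroblast-like nuclei it was 35.6, 5.26 and 1.34. Each fibroblast-like control held 1 UMI. IGF1 in endothelial-like nuclei was 53.9 in control dog 1, 2.82 in control dog 2 and 0.864 in the graft, while in fibroblast-like nuclei it was 0.0, 0.0 and 0.536, the last from 2 UMIs. For the 0 UMIs of IGF1 in the fibroblast-like controls, a floor of 3 counts would be 308 and 27.1 CPM. DESeq2 gave a log2 value of -1.90 for IGF1 in this class, opposite in sign to edgeR's 2.48.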

How the results depend on the processing

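Counts of called genes moved with most settings, in the order distended against control, grafted against control, grafted against distended. In whole vein the 0, 0 and 0 became 1, 117 and 31 with DESeq2, 11, 287 and 144 without a filter on low counts, and 0 to 209, 0 to 643 and 0 to 451 when 1 library was left out. In endothelial-like nuclei the 0, 196 and 45 became 17, 708 and 291 without the filter and 2 with DESeq2 for the first comparison. They became 307 and 100 for the graft comparisons when clustered without the 4 dominant features, 119 for grafted against control without the HBM cluster (chosen after seeing the data), and 0 to 123, 0 to 812 and 0 to 352 with 1 library left out. In fibroblast-like nuclei the 2, 182 and 224 became 0, 60 and 29 with DESeq2, 0, 37 and 1197 without the filter, and 0 to 3, 4 to 282 and 0 to 2030 with 1 library left out. Clustering without the dominant features gave 0 for the first and leaving those features out gave 134 for the third.

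The dog as a replicate block gave 0, 119 and 0 in endothelial-like and 0, 7 and 119 in fibroblast-like nuclei, and it changed no member's call beyond IGF1 and IGFBP5 as given. The dogs' differences in control and distended vein correlated at r = -0.304 over 13170 genes in whole vein. The class mix also ran opposite between the dogs. Endothelial-like nuclei made up 87.1% and 53.8% of the controls and 30.1% and 71.8% of the distended veins. Crossed numbers in 1 group cannot be told apart from this mix, and neither was tested further. A crossed replicate block, added after seeing the data, gave 9, 138 and 20 in whole vein, 5, 139 and 8 in endothelial-like and 1, 6 and 2 in fibroblast-like nuclei.

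Fitted log2 values of members changed sign in 13 of 349 alternatives that kept all libraries, all of them uncalled, and the cause was not tested. With the replicate block these were IGF1R grafted against distended in whole vein (-0.16), IGFBP4 in endothelial-like nuclei of the graft (1.05 against control, 0.01 against distended), and in fibroblast-like nuclei IGFBP3 (-0.47) and IGFBP5 (-0.19) distended against control and IGFBP7 grafted against control (-0.48). Without the filter they were IGF1R in whole vein, grafted against control (0.21), IGFBP4 in endothelial-like nuclei, grafted against control (0.07; 0.36 without the HBM cluster), IGFBP7 in fibroblast-like nuclei, distended against control (0.06) and IGF1R there, grafted against distended (0.09; 0.03 with DESeq2). DESeq2 gave -1.90 for IGF1 in fibroblast-like nuclei, grafted against control.

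With 1 library left out, signs changed in 23 of 232 fits. For distended against control the ranges were -3.96 to 3.87 (IGF1), -1.35 to 0.87 (IGF1R) and -0.72 to 1.79 (IGFBP5) in whole vein, -9.41 to 1.79 (IGF1), -1.09 to 0.81 (IGF1R) and -0.44 to 2.95 (IGFBP4) in endothelial-like nuclei, and -0.34 to 2.36 (IGFBP3), -0.33 to 8.73 (IGFBP4), -9.28 to 10.19 (IGFBP5) and -6.15 to 0.83 (IGFBP7) in fibroblast-like nuclei. For grafted against control they were -0.84 to 1.37 (IGF1R) and -2.95 to 3.40 (IGFBP2) in whole vein, -0.16 to 1.71 (IGF1R) and -1.35 to 2.08 (IGFBP4) in endothelial-like nuclei, and -4.66 to 5.42 (IGFBP5) and -0.16 to 2.48 (IGFBP7) in fibroblast-like nuclei. For grafted against distended they were -0.18 to 1.11 (IGFBP4) in whole vein, -4.13 to 4.29 (IGF1) in endothelial-like nuclei, and -0.47 to 0.25 (IGF1R), -0.20 to 1.67 (IGFBP4) and -5.57 to 5.06 (IGFBP5) in fibroblast-like nuclei. Groups with 1 library were assumed to vary like the rest. Depth limits the low members: IGF1, IGFBP2 and IGFBP3 had 0 or 1 UMI in several libraries.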
